A study of Zea mays with 6 samples.

Results

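The genes described here take sucrose into the maize endosperm and turn it into starch. They were chosen by locus identifier, from a list of 8 genes with classical kernel mutants: mn1, sh1, sh2, bt2, bt1, wx1, ae1 and su1. Of these, 7 were found among the 36781 loci of the deposited table, and mn1 (Zm00001d003776), which encodes a cell wall invertase, was not analysed here. The names come from that list, since the table gives these loci an identifier alone. The RNA came from endosperm at 12 days after pollination, in 3 libraries of the mutant smk8-ref, the reference allele of smk8, and 3 libraries of wild type (WT). The labels give neither the inbred background of the plants nor the gene affected in smk8-ref.

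Sucrose reaches the endosperm from the mother plant. A cell wall invertase splits it at the base of the kernel, and sucrose synthase breaks it down inside the storage cells. ADP-glucose pyrophosphorylase then makes ADP-glucose, in maize endosperm largely in the cytosol, and a carrier in the amyloplast envelope takes it to the starch synthases, branching enzymes and debranching enzymes that build amylose and amylopectin. No sequence of these genes is shown, because only a table of gene names was used as reference.

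Expression was given as FPKM, fragments per kilobase scaled for sequencing depth, and was summed over the transcripts listed for each locus. Library sums were 294002 to 305360 FPKM in smk8-ref and 287260 to 321002 FPKM in WT, and read totals are unknown. Loci at 1 FPKM or more numbered 15625 to 15988 in smk8-ref libraries and 14350 to 15312 in WT libraries, with no overlap. FPKM is a relative measure, and the part of this difference in the starch gene levels was not tested. Along the main principal component (44.4% of the variance) smk8-ref libraries scored 27.8 to 39.9 and WT libraries -44.6 to -19.8, with WT replicate 3 nearest to the mutant. Of 3 measured endosperm markers, FIE1 stood at 19.0 to 31.1 FPKM in smk8-ref and 16.4 to 38.8 FPKM in WT, and ESR1 averaged 2.81 ± 3.43 FPKM in smk8-ref and 1.71 ± 0.202 FPKM in WT (SD, n = 3 each); neither passed the test used below. The third, ESR3, a marker of endosperm cells around the embryo, fell to 0.308, 1.75 and 0.837 FPKM in smk8-ref, against 3.22, 3.23 and 4.68 FPKM in WT (log2 change -1.31, limma adjusted p = 0.043). The part of those cells in the starch gene levels was not tested.

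The ADP-glucose carrier gene bt1 and the branching enzyme gene ae1 fell in smk8-ref endosperm, and 3 further genes, sh2, bt2 and su1, were lower in every smk8-ref library without passing the test. All 7 genes were expressed highly enough to be tested. In smk8-ref, bt1 was 2.19-fold lower (95% confidence interval 1.66 to 2.89) and ae1 1.69-fold lower (1.29 to 2.22). These 2 of 7 fell at an adjusted p under 0.05, and none rose. Of the 15858 tested genes 7.6% passed, 4.21% falling and 3.39% rising. The sum was lower in every smk8-ref library than in any WT library for 5 of the 7, namely sh2, bt2, bt1, ae1 and su1, against 15.9% of all tested genes. The median log2 change of the 7 was -0.64, and that of all tested genes was 0.05. Each of the 7 had a mean level above that of at least 87.6% of tested genes. Among the 8180 genes kept by a filter at 5 FPKM, 9.63% fell and the median log2 change was -0.05. At that filter 3 of the 7 fell, namely bt2, bt1 and ae1.

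**Figure D1:**
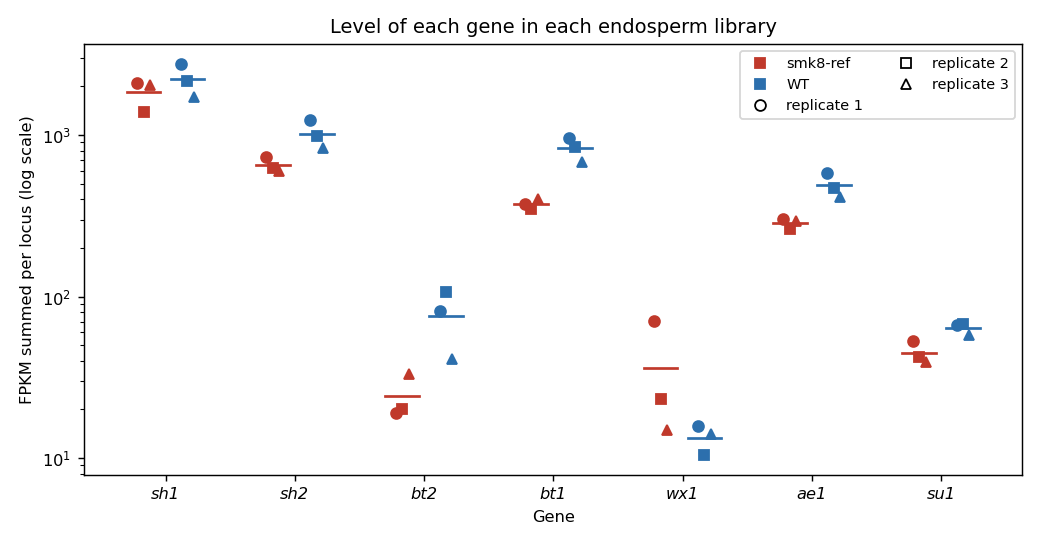
FPKM summed per locus (log axis) for each of the 7 genes, with smk8-ref libraries in red and WT libraries in blue, a marker shape for each replicate and a line at the group mean. The groups are apart for sh2, bt2, bt1, ae1 and su1 and overlap for sh1 and wx1.

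Of the genes for sucrose entry, sh1 was measured. It encodes the main sucrose synthase of the endosperm, which splits sucrose into fructose and UDP-glucose. The locus (Zm00001d045042, chromosome 9, 10906934 to 10912944, plus strand) had 2086, 1398 and 2040.45 FPKM in smk8-ref replicates 1 to 3, against 2771, 2166 and 1719.5 FPKM in WT replicates 1 to 3. It was among the 22 most abundant loci of every library. WT replicate 3 lay below smk8-ref replicates 1 and 3, so the groups overlapped. The means were 1841 ± 385 FPKM in smk8-ref and 2219 ± 528 FPKM in WT (SD, n = 3 each), a log2 change of -0.26 ± 0.26 (SE), with a 95% confidence interval of -0.88 to 0.35 (limma adjusted p = 0.55).

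ADP-glucose pyrophosphorylase is built from large subunits, encoded by sh2 in the endosperm, and small subunits, encoded by bt2. The sh2 locus (Zm00001d044129, chromosome 3, 219979958 to 219989322, minus strand) had 729, 623 and 599.7 FPKM in smk8-ref replicates 1 to 3, against 1237, 991 and 835 FPKM in WT replicates 1 to 3. All 3 smk8-ref libraries lay below the lowest WT library, replicate 3. The means were 650.4 ± 68.8 FPKM in smk8-ref and 1021 ± 202 FPKM in WT, a log2 change of -0.64 ± 0.19 that did not pass the threshold (limma adjusted p = 0.091).

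The bt2 locus (Zm00001d050032, chromosome 4, 61315575 to 61321350, plus strand) had 18.9, 20.0 and 33.3 FPKM in smk8-ref, against 81.3, 106 and 41.1 FPKM in WT. The groups did not overlap, but smk8-ref replicate 3 and WT replicate 3 were close. The means were 24.1 ± 8.0 FPKM in smk8-ref and 76.2 ± 32.9 FPKM in WT. This was the largest difference among the 7 genes, with a log2 change of -1.57 ± 0.37 that lay just above the threshold (limma adjusted p = 0.0505). Without WT replicate 3 the log2 change was -1.95 and passed (adjusted p = 0.026); it did not pass without any other single library. A lower log2 change than that of bt2 was found for 65 of the 15858 tested genes.

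The level of bt2 was 2.59%, 3.21% and 5.55% of the level of sh2 in smk8-ref replicates 1 to 3, against 6.58%, 10.7% and 4.92% in WT replicates 1 to 3. The ratio therefore overlapped between genotypes: WT replicate 3 had a lower share than smk8-ref replicate 3. The mean log2 ratio was -4.80 ± 0.57 in smk8-ref and -3.83 ± 0.57 in WT, and the difference of -0.97 had p = 0.20 in a two-sided exact permutation test, where 3 libraries against 3 cannot give less than 0.10. The table lists 3 bt2 transcripts, with transcript numbers up to 4, and 14 sh2 transcripts, with numbers up to 23, and both levels cover the listed transcripts alone.

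The gene bt1 encodes the carrier of ADP-glucose in the amyloplast envelope. Its locus (Zm00001d015746, chromosome 5, 115748852 to 115750963, minus strand) had 374, 347 and 402 FPKM in smk8-ref replicates 1 to 3, against 955, 839 and 686 FPKM in WT replicates 1 to 3. The 3 smk8-ref libraries lay close together and well under every WT library. The gene fell to a mean of 374 ± 27.5 FPKM in smk8-ref, against 827 ± 135 FPKM in WT, a log2 change of -1.13 ± 0.17 (limma adjusted p = 0.022). The call was kept without WT replicate 2 or 3 (adjusted p = 0.046 and 0.021). It was lost without WT replicate 1 (adjusted p = 0.068) and without smk8-ref replicate 1, 2 or 3 (adjusted p = 0.081, 0.084 and 0.053). Over the 6 fits the log2 changes were between -1.26 and -1.02. Of all tested genes, 1205 were called with all 6 libraries and 38 without WT replicate 1. Without smk8-ref replicate 1, 2 or 3 the called genes numbered 38, 28 and 214.

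**Figure D2:**
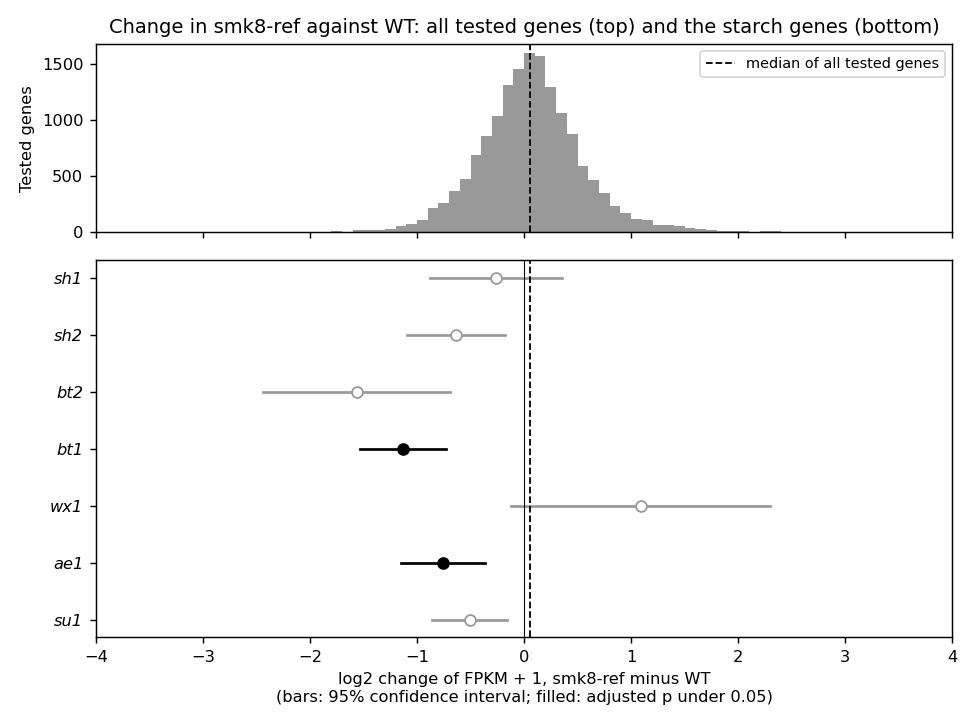
Log2 change of FPKM + 1, smk8-ref minus WT, as a histogram over all 15858 tested genes (top; values past the axis are drawn in its end bins) and for each of the 7 genes with its 95% confidence interval (bottom). The filled points, bt1 and ae1, passed an adjusted p of 0.05, and wx1 is the one gene with a positive change.

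Among the genes that build the polymers, wx1 encodes granule-bound starch synthase, which makes amylose. Its locus (Zm00001d045462, chromosome 9, 23107329 to 23111318, minus strand) had 70.6, 23.2 and 15.0 FPKM in smk8-ref replicates 1 to 3, against 15.8, 10.4 and 14.0 FPKM in WT replicates 1 to 3. The higher mean in smk8-ref, 36.2 ± 30.0 FPKM against 13.4 ± 2.73 FPKM in WT, came mainly from smk8-ref replicate 1, and smk8-ref replicate 3 lay within the WT values. The log2 change was 1.09 ± 0.51 (limma adjusted p = 0.22), and 0.47 without smk8-ref replicate 1. The table lists 4 wx1 transcripts, with transcript numbers up to 15, so the low level of this locus covers the listed transcripts alone.

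The gene ae1 encodes starch branching enzyme IIb, which adds the branches of amylopectin. Its locus (Zm00001d016684, chromosome 5, 172412995 to 172430415, minus strand) had 304, 263 and 292 FPKM in smk8-ref replicates 1 to 3, against 583, 468 and 416 FPKM in WT replicates 1 to 3. Every smk8-ref library was below every WT library. The gene fell to 287 ± 20.8 FPKM in smk8-ref, against 489 ± 85.4 FPKM in WT, a log2 change of -0.76 ± 0.17 (limma adjusted p = 0.042). With 1 library left out the log2 change was -0.87 to -0.62, and the call was kept without WT replicate 3 alone (limma adjusted p = 0.037). It was lost without WT replicate 1 or 2 (adjusted p = 0.11 and 0.079) and without smk8-ref replicate 1, 2 or 3 (adjusted p = 0.12, 0.14 and 0.10). Of all tested genes, 500 were called without WT replicate 2, and the other fits that lost the call are those counted for bt1.

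The gene su1 encodes an isoamylase, which trims branches from growing amylopectin. Its locus (Zm00001d049753, chromosome 4, 43110569 to 43119167, plus strand) had 52.7, 42.3 and 39.6 FPKM in smk8-ref replicates 1 to 3, against 66.7, 67.8 and 57.5 FPKM in WT replicates 1 to 3. The groups did not overlap, and the gap between the nearest libraries was smaller than the range within smk8-ref. The means were 44.9 ± 6.95 FPKM in smk8-ref and 64.0 ± 5.65 FPKM in WT, a log2 change of -0.51 ± 0.15 that did not pass (limma adjusted p = 0.082).

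**Figure D3:**
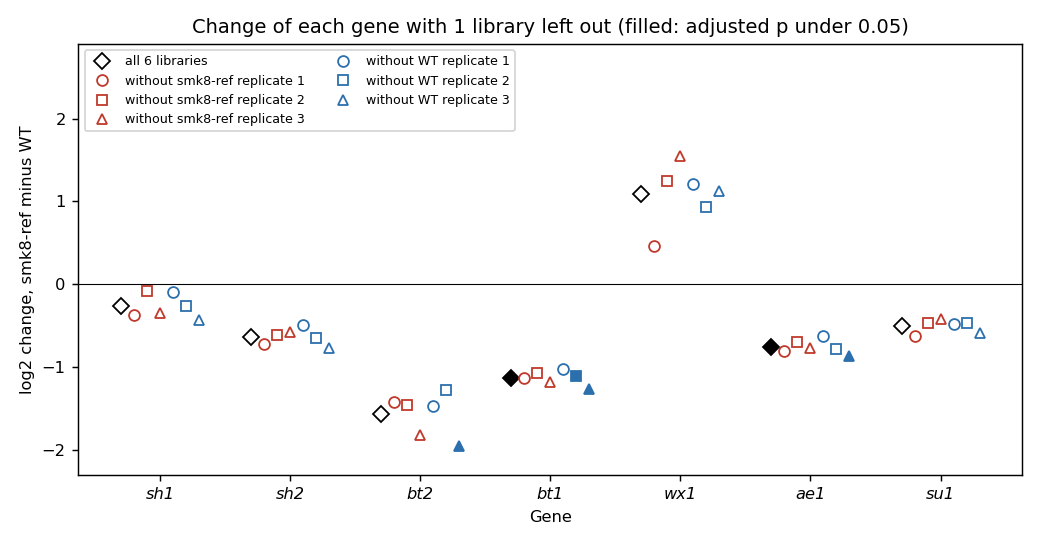
Log2 change of each gene, smk8-ref minus WT, with all 6 libraries (black diamond) and with 1 library left out (red, an smk8-ref library; blue, a WT library), filled where the adjusted p was under 0.05. Every gene keeps its side of 0; bt1 is filled in 2 of the 6 reduced fits, and ae1 and bt2 in 1 each.

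WT replicate 3 was the lowest WT library for 6 of the 7 genes, wx1 being the other. The same library had the most RNA of embryo and oil-body marker genes among WT libraries. The 4 measured markers of that list were KN-1, OBAP1A, OBAP2A and OBAP2B. They summed to between 59.1 and 89.1 FPKM in smk8-ref libraries and between 20.7 and 68.0 FPKM in WT libraries. Their log2 changes were 0.54, 1.01, 1.14 and 1.15, and none of the 4 passed the threshold. KN-1 was higher in every smk8-ref library (1.03 to 1.57 FPKM, against 0.0327 to 0.993 FPKM in WT). So was OBAP2A (26.3 to 41.7 FPKM, against 10.03 to 23.6 FPKM in WT). OBAP1A and OBAP2B overlapped between genotypes. The aleurone marker CR4 had 9.24 to 10.4 FPKM in smk8-ref and 7.24 to 8.93 FPKM in WT and did not pass. The 4 genes listed for pericarp or photosynthetic tissue summed to between 189 and 246 FPKM in smk8-ref and between 190.1 and 206 FPKM in WT. Most of that sum was psbA, higher in every smk8-ref library (154 to 194 FPKM, against 127 to 138 FPKM in WT). Both psaC (19.1 to 28.2 against 33.3 to 38.4 FPKM) and psbB (16.2 to 23.6 against 26.2 to 32.9 FPKM) were lower in every smk8-ref library. None of these 3 passed. They are plastid genes, which can also be transcribed in the amyloplasts of endosperm, so their levels do not measure pericarp or photosynthetic tissue. RBCS had 0.039 to 0.239 FPKM over all libraries and was too low to test. The part of embryo, aleurone, pericarp or photosynthetic tissue in the lower starch gene levels was not tested. In bulk tissue, fewer starch-storing cells and less of each RNA per cell cannot be told apart.

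Per unit of transcript length, the order of the levels in smk8-ref was sh1, sh2, bt1, ae1, su1, wx1, bt2. In smk8-ref the neighbours su1 and wx1, and wx1 and bt2, overlapped between libraries, and the other neighbours did not. In WT the order was sh1, sh2, bt1, ae1, bt2, su1, wx1, with sh2 overlapping bt1 and bt2 overlapping su1. Within the smk8-ref libraries bt1 (347 to 402 FPKM) was thus apart from sh2 (599.7 to 729 FPKM), whereas in WT the ranges of bt1 (686 to 955 FPKM) and sh2 (835 to 1237 FPKM) met. Without the abundant sh1, the other 6 genes summed to 1549, 1319 and 1382 FPKM in smk8-ref replicates 1 to 3, against 2939, 2482 and 2049.7 FPKM in WT replicates 1 to 3. With sh1 included, the 7 genes summed to 2716 to 3636 FPKM in smk8-ref libraries and 3769 to 5709 FPKM in WT libraries, still apart. As a share of all FPKM they held 0.909% to 1.191% in smk8-ref libraries and 1.188% to 1.78% in WT libraries, and these ranges met. That share was not calculated without sh1.

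Single transcripts gave a finer view than the sums. At a mean of at least 1 FPKM, 51 transcripts of the 7 loci were present, of which 49 could be tested. In a fit over 23076 transcripts, 5 of them fell in smk8-ref and none rose, against 1.19% of tested transcripts that fell. They belong to sh2, bt2, bt1 and ae1. The smk8-ref libraries lay below all WT libraries for 13 of the 51 and above them for 1, against 13.4% and 14.3% of tested transcripts.

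At sh2, whose sum did not pass, the transcript Zm00001d044129_T018 fell. It had 60.4, 53.4 and 71.4 FPKM in smk8-ref replicates 1 to 3, against 242, 203 and 256 FPKM in WT replicates 1 to 3, and WT replicate 3 was here the highest library. Its log2 change was -1.91 ± 0.16 (limma adjusted p = 0.011), and its call was kept in 4 of 6 fits with 1 library left out, the exceptions being those without smk8-ref replicate 1 (adjusted p = 0.0522) and without replicate 2 of that genotype (0.0520). The transcript held 9.59% ± 2.01 of the sh2 sum in smk8-ref and 23.6% ± 6.12 in WT. It made up 46.4% of the difference in the mean sh2 level. It was chosen as the sh2 transcript with the largest difference in mean FPKM, so leaving it out had to shrink the difference. Without it the sh2 sum overlapped between genotypes, at 528 to 668 FPKM in smk8-ref and 579.5 to 994 FPKM in WT (log2 change -0.39, adjusted p = 0.31).

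Other sh2 transcripts differed less in mean FPKM, and none of them passed the threshold. The most abundant one, Zm00001d044129_T009, had 257, 245 and 231 FPKM in smk8-ref and 452, 359 and 252 FPKM in WT, with WT replicate 3 between the smk8-ref libraries (limma adjusted p = 0.27). Its share of the sum was 37.7% ± 2.13 in smk8-ref and 34.3% ± 3.60 in WT. Zm00001d044129_T010 had a mean of 109 ± 27.4 FPKM in smk8-ref and 98.5 ± 11.5 FPKM in WT (adjusted p = 0.79), so that its share of the sum was 16.7% ± 2.66 in smk8-ref and 9.88% ± 2.16 in WT, with no overlap.

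At ae1, Zm00001d016684_T031 (172413049 to 172429964) stood out in the same way. This most abundant ae1 transcript had 65.4, 54.1 and 81.1 FPKM in smk8-ref replicates 1 to 3, against 237, 196 and 172 FPKM in WT replicates 1 to 3. It fell by 1.58 on the log2 scale (SE 0.20, limma adjusted p = 0.026) and kept its call without replicate 3 of either genotype. It lost the call without WT replicate 1 or 2 (adjusted p = 0.085 and 0.066) and without smk8-ref replicate 1 or 2 (0.0995 and 0.0999). Its share of the ae1 sum was 21.5%, 20.5% and 27.8% in smk8-ref replicates 1 to 3, against 40.6%, 41.8% and 41.4% in WT replicates 1 to 3.

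The WT shares of this transcript lay close together, and all 3 smk8-ref shares were far below them. The mean share was 23.3% ± 3.92 in smk8-ref and 41.3% ± 0.617 in WT, a difference of -18.0 percentage points (exact permutation test, two-sided, p = 0.10, the smallest this design can give; adjusted p = 0.35 over 7 genes). The transcript made up 66.6% of the difference in the mean ae1 level. It too was chosen as the transcript of its gene with the largest difference in mean FPKM, so leaving it out had to shrink the difference. Without it, ae1 had 239, 209 and 211 FPKM in smk8-ref and 346, 272 and 244 FPKM in WT, still apart, with a log2 change of -0.37 that did not pass (limma adjusted p = 0.19).

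**Figure D4:**
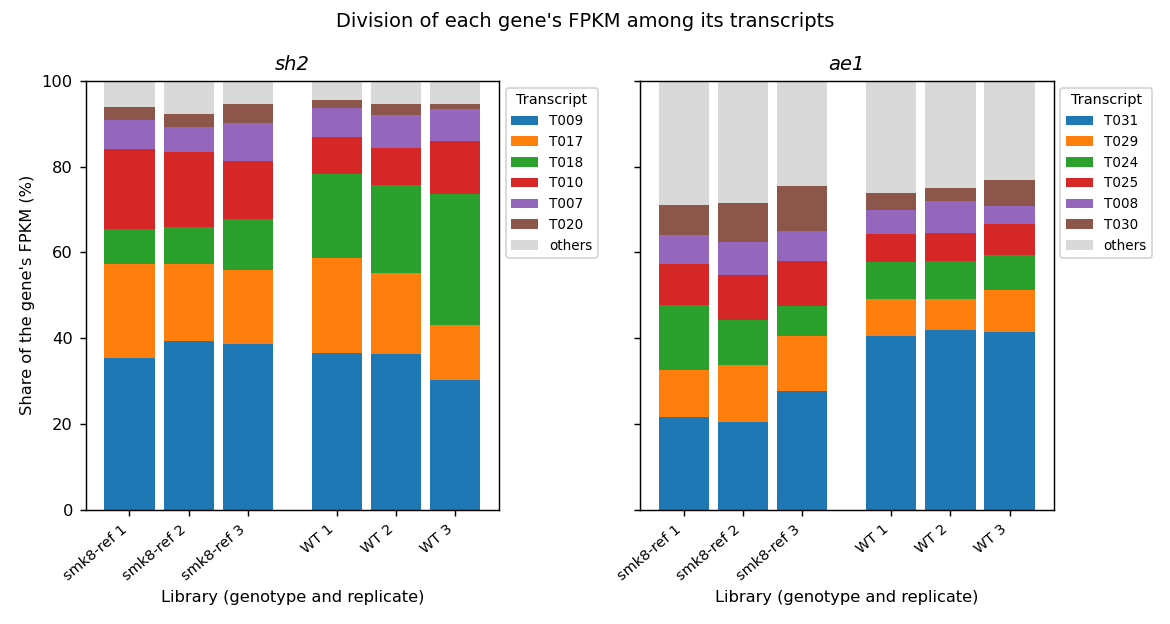
Share of the summed FPKM of sh2 (left) and ae1 (right) held by each gene's 6 most abundant transcripts and by the others together, for each library. The green band of the sh2 transcript T018 is 8.28% to 11.9% in smk8-ref and 19.6% to 30.6% in WT, and the blue band of the ae1 transcript T031 is 20.5% to 27.8% in smk8-ref and 40.6% to 41.8% in WT.

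Of the 19 ae1 transcripts at a mean of 1 FPKM or more, 2 fell, 16 did not pass and 1 was too low to test. The other one that fell, Zm00001d016684_T002, had 3.97, 4.95 and 3.65 FPKM in smk8-ref and 13.1, 12.1 and 11.0 FPKM in WT (log2 change -1.34, limma adjusted p = 0.026). It kept its call in 1 of 6 fits with 1 library left out, the one without WT replicate 3. By contrast, Zm00001d016684_T029 had means of 35.2 ± 1.84 FPKM in smk8-ref and 41.7 ± 7.58 FPKM in WT, and Zm00001d016684_T030 had 25.3 ± 4.84 FPKM in smk8-ref and 21.0 ± 5.80 FPKM in WT (adjusted p = 0.49 and 0.58). Zm00001d016684_T012 was listed at 8.10, 8.65 and 0 FPKM in smk8-ref and at 0, 0 and 0.598 FPKM in WT. Where transcripts overlap, short reads can be assigned to one or another only by estimate, and the error of that division was not analysed here.

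The bt1 sum was nearly a single transcript, Zm00001d015746_T001, which held 99.6% ± 0.113 of it in smk8-ref and 99.7% ± 0.00407 in WT. These shares did not overlap, but they differed by 0.127 percentage points, so the fall of bt1 was that of 1 transcript. In the fit of transcripts its adjusted p was 0.034 in limma, and the call was kept in 1 of 6 fits with 1 library left out, that without WT replicate 3.

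At bt2, Zm00001d050032_T003 had 4.43, 2.83 and 4.71 FPKM in smk8-ref, against 17.8, 10.4 and 14.5 FPKM in WT. It fell, with a log2 change of -1.60 ± 0.25 (limma adjusted p = 0.043), and lost the call in each of the 6 fits with 1 library left out (adjusted p = 0.066 to 0.13). The main bt2 transcript, Zm00001d050032_T004, had 12.7, 14.4 and 24.5 FPKM in smk8-ref and 57.2, 90.1 and 23.2 FPKM in WT, and WT replicate 3 stood between the smk8-ref libraries (adjusted p = 0.17). It held 71.0% ± 3.48 of the bt2 sum in smk8-ref and 70.5% ± 14.1 in WT.

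None of the 10 sh1 transcripts passed the threshold, and all but Zm00001d045042_T016 had a negative log2 change. The most abundant, Zm00001d045042_T010, had 802, 553 and 456 FPKM in smk8-ref and 876, 933 and 366 FPKM in WT, and its share of the sum was 33.4% ± 9.63 in smk8-ref and 32.0% ± 10.9 in WT. Zm00001d045042_T016 had 219, 251 and 328 FPKM in smk8-ref, against 197, 218 and 154 FPKM in WT. This was the one transcript of the 51 that lay above WT in every smk8-ref library, and it did not pass (log2 change 0.48, limma adjusted p = 0.26). Its separation rests on 219.3 FPKM in smk8-ref replicate 1 against 217.7 FPKM in WT replicate 2. Zm00001d045042_T013 lay below WT in every smk8-ref library, with 26.7, 12.5 and 30.9 FPKM in smk8-ref, against 46.5, 38.8 and 46.0 FPKM in WT, and did not pass either (log2 change -0.97 ± 0.33, limma adjusted p = 0.18).

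The main transcripts of wx1 and su1 kept their place. Zm00001d045462_T001 held 80.9% ± 4.77 of the wx1 sum in smk8-ref and 83.4% ± 4.03 in WT, and the 70.6 FPKM of smk8-ref replicate 1 was spread in like proportion, with 54.7 FPKM in this transcript and 11.3 FPKM in Zm00001d045462_T014. Zm00001d049753_T003 held 51.2% ± 2.62 of the su1 sum in smk8-ref and 53.9% ± 3.59 in WT. Over the 7 genes the share of the main transcript did not overlap between genotypes for bt1 and ae1. How often transcript shares separate over all genes was not calculated. These separations therefore have no background, and neither have those of other transcripts, such as T010 and T018 of sh2. No difference had an adjusted p below 0.35 in the exact permutation test, the lowest that occurred. With 3 libraries against 3 that test cannot give less than 0.10, so no share difference could have passed 0.05.

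Profiles over the 6 libraries were compared by the root mean square difference of log2(FPKM + 1), each centred on its own mean. The closest pair of the 7 was sh2 and ae1, at 0.0971. The nearest to bt1 was ae1 (0.20), the nearest to su1 and to sh1 was sh2 (0.14 and 0.26), and the nearest to bt2 was bt1 (0.43). The profile of wx1 was far from all, 0.94 from its nearest, sh1. Of loci with a name in the table and a mean of at least 5 FPKM, the nearest to bt1 were SIP2-1 (0.0872), an aquaporin, and RPL29 (0.25), a ribosomal protein, and the nearest to ae1 were DER1.2 (0.16), a derlin, and PPDK2 (0.17), a pyruvate phosphate dikinase.

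Few other genes of the pathway carry a name in the table. The list of sugar and starch enzyme names matched 4 loci: 1 fell, 3 missed the threshold and none rose. Of all tested genes, 4.21% fell and 3.39% rose. PHI1 (Zm00001d034256), a phosphoglucose isomerase that interconverts glucose 6-phosphate and fructose 6-phosphate, fell to 49.9, 42.6 and 63.2 FPKM in smk8-ref replicates 1 to 3, against 195, 169 and 165 FPKM in WT replicates 1 to 3 (log2 change -1.76 ± 0.17, limma adjusted p = 0.014). PPDK2 (Zm00001d010321) had 1886, 1475 and 2023 FPKM in smk8-ref and 2781, 2904 and 2259 FPKM in WT (adjusted p = 0.14). Both PPDK2 and PHI1 were lower in every smk8-ref library than in any WT library, as were 15.9% of all tested genes.

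FRK2, the name of a fructokinase, which phosphorylates the fructose that sucrose synthase releases, stands at a pair of loci. Zm00001d035037 had 1.55, 16.2 and 26.0 FPKM in smk8-ref and 11.7, 1.24 and 28.3 FPKM in WT. Zm00001d035038 had 28.2, 8.21 and 7.85 FPKM in smk8-ref and 0.396, 13.8 and 0.504 FPKM in WT. Neither passed (limma adjusted p = 0.94 and 0.21), and libraries of the same genotype differed widely. How reads that might match both were assigned was not analysed here, so the values are uncertain.

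The authors' deposited table marks 6 of the 51 starch gene transcripts as down and 4 as up, and its smallest q-value among the 51 is 0.66. Of all 86771 transcripts in the authors' deposited table, 2.31% are marked down and 2.53% up. Those shares include transcripts under a mean of 1 FPKM, which the 51 leave out, so the sets are unlike. Those marked down in the authors' deposited table include Zm00001d044129_T018 of sh2 (fold change 0.28), Zm00001d050032_T004 and Zm00001d050032_T003 of bt2 (0.32 and 0.46) and Zm00001d016684_T031 of ae1 (0.39). In the authors' deposited table the carrier transcript Zm00001d015746_T001 of bt1 is marked as no change, with a log2 fold change of -0.91 and a q-value of 0.70.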

How the data were processed

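The 6 endosperm libraries were grouped by title into 3 smk8-ref and 3 WT. Per the submitters' processing notes, HISAT and StringTie were used; their roles, versions and settings are not stated there, nor is a genome build. Coordinates are those of the table, whose contig names begin with B73V4. The authors deposited FPKM values for 86771 transcripts, together with their own comparison per transcript, as a fold change (linear ratio), its log2 value and p-values and q-values from a model not stated. The FPKM values of the listed transcripts were summed per locus. Loci at 1 FPKM or more in at least 3 of 6 libraries were compared on log2(FPKM + 1), which understates changes of low genes, with limma 3.58.1 in R 4.3.3 (empirical Bayes with a variance trend, two-sided, Benjamini-Hochberg over all tested loci, threshold 0.05). Transcripts were fitted in the same way. The fit of loci was also run on simulated data in which each gene had independent noise. Differences shared by a whole library were not simulated, so that run does not cover their effect on the calls. Errors are SD over libraries, or SE for changes. The labels do not say whether the repeats come from separate plants, so p-values reflect library-to-library spread, which may be technical.

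Genes were named by a rule: all listed loci, their transcripts with a mean of at least 1 FPKM, the nearest profiles, and pathway and marker names in the table. Members and lists were chosen with earlier results of these data known. RefSeq names (assembly Zm-B73-REFERENCE-NAM-5.0) could be linked to 0 table identifiers; RefSeq holds 7 of the 8 gene symbols, and for 6 of these the chromosome is that of the measured locus. The alternatives were pseudocounts, filters, scalings, no variance trend, a replicate block, transcripts and single libraries left out.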

Additional observations from a re-analysis of the deposited data

How the results depend on the processing

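None of the 7 genes changed its direction under any alternative run. Of 1205 called genes (538 higher and 667 lower), 388 were left with no filter, 779 with quantile normalization, 490 among transcripts and 28 to 1425 with 1 library left out. Median-of-ratios scaling gave 309 higher and 785 lower; it moved the median log2 change of all tested genes to -0.07, against 0.05, and that of the 7 genes to -0.79. The count of called starch genes, 2, was 1 with no filter, 4 among transcripts (genes with at least 1 called transcript), 0 to 3 with 1 library left out, and 1 when sh2 and ae1 were summed without T018 and T031, an alternative added after seeing the data, as was leaving out libraries in the fit of transcripts. A replicate block in the fit left 36 called genes and 0 of the 7 (adjusted p = 0.062 for bt1 and 0.078 for ae1); deviations of same-numbered libraries from their genotype means correlated at 0.0069, -0.0085 and 0.083, not every library matched its own number best, and the numbers were not taken as pairs. The gene ae1 also lost its call with median-of-ratios scaling (adjusted p = 0.068), quantile normalization (0.091) and no filter (0.085), whereas bt2 passed with a pseudocount of 5 (0.047), a filter at 5 FPKM (0.039) and median-of-ratios scaling (0.045), and sh2 with quantile normalization (0.026). The bt2 to sh2 difference was -1.28 to -0.66 and the number of genes with a separated main transcript share 2 to 4 with 1 library left out. What causes these differences was not tested. Depth is unknown, and 3 libraries per genotype limit every call.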

Other observations

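Fold changes in the authors' deposited table do not always follow its FPKM means. In the authors' deposited table Zm00001d016684_T001 of ae1 is marked up with a fold change of 2.13, while its FPKM values were 8.35, 2.76 and 4.77 in smk8-ref and 24.2, 6.78 and 3.94 in WT. Both wx1 transcripts at a mean of 1 FPKM or more, Zm00001d045462_T001 and Zm00001d045462_T014, are marked up in the authors' deposited table (fold changes 4.22 and 3.48), and for each the smk8-ref values overlapped those of WT.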
